A study of Mus musculus with 2 samples.

Results

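The gene segments from which T cells assemble their antigen receptors were examined in the open chromatin of mouse spleen. A segment was counted as a member when the GENCODE vM21 annotation of the mouse genome (mm10) gives it the type V, D, J or C segment of a T cell receptor, which yielded 226 segments of 55450 annotated genes. They comprised 144 variable (V), 4 diversity (D), 70 joining (J) and 8 constant (C) segments. The Tra/Trd locus on chromosome 14 held 172 of them, the Trb locus on chromosome 6 held 39 and the Trg locus on chromosome 13 held 15. Segments annotated as pseudogenes were not members and are named as such where a peak lay beside them.

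Chromatin accessibility had been profiled with scFFPE-ATAC, a single-cell assay in which the Tn5 transposase inserts adaptors into open DNA of nuclei recovered from formalin-fixed, paraffin-embedded tissue. Both libraries came from FFPE spleen of C57BL/6J mice aged 8 weeks, with both sexes in use in the study and no other treatment or allele named. In 1 library the nuclei were not purified by density gradient centrifugation, and the other was made in a reaction system of 50 µL, for which the label does not say whether the gradient was used. Each condition had 1 library, so no difference between them has a replicate check, and the conditions they were set against are not analysed here. The authors called peaks on each library with its cells merged, so a peak cannot be assigned to T cells, B cells or other spleen cells, and fewer cells of a type cannot be told apart from less open chromatin per cell. The list without gradient centrifugation held 25343 peaks and the 50 µL list 89382, and the number of reads and cells behind each list is unknown.

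A T cell receptor gene does not exist as a continuous coding unit in most cells. In developing thymocytes the RAG recombinase cuts at recombination signal sequences beside V, D and J segments, and the joined exon is then spliced to a constant segment. The order and lineage of these joins follow the accessibility of the segments. It is set by promoters beside V and D segments, by the TEA promoter ahead of the Traj array and by enhancers. Among the enhancers are Eα past Trac and Eβ between Trbc2 and Trbv31. In mature spleen T cells the joined V segment is transcribed from its own promoter under the same enhancers, while B cells keep these loci in the unjoined form. The V arrays hold many near-identical copies, and the Trav array of this mouse strain carries repeated stretches whose segments have the suffix d or n.

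The sites where these control regions lie were read first, because their letters can be set beside the peaks. Each of the 4 sequences is 200 bases of the GRCm38 reference (mm10), plus strand, inside or around a peak of the 50 µL library. The first is from the first peak past Trac, the second from the strongest peak between Trbc2 and Trbv31, the third from the peak ahead of Traj61 and the last from the peak ahead of Trbd1. The first 3 windows begin 30 bases before the first RUNX or CRE match of their peak, a choice made after the letters had been seen, and the last is centred on the peak summit because its peak held no such match. Capitals mark matches to short consensus letters, searched on both strands. RUNX sites were searched as TGTGGT, with TGCGGT as the second form. For CRE sites the letters were TGACGTCA and, as a variant, TGATGTCA. TCF/LEF sites were taken as CTTTGAA, with CTTTGAT as the other form. GATA sites were AGATAA. ETS sites were taken as CAGGAAG, and CCGGAAG was accepted as well. No 2 matches in these windows overlapped.
Past Trac, chr14:54227450-54227649: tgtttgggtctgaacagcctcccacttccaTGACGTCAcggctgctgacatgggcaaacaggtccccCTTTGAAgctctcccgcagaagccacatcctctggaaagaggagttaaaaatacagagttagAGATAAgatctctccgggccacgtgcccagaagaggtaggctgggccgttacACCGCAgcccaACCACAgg
Trbc2 to Trbv31, chr6:41554434-41554633: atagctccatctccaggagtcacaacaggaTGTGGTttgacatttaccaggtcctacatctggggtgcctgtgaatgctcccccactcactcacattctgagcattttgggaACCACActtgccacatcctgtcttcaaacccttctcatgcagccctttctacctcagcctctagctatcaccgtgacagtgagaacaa
Ahead of Traj61, chr14:54152919-54153118: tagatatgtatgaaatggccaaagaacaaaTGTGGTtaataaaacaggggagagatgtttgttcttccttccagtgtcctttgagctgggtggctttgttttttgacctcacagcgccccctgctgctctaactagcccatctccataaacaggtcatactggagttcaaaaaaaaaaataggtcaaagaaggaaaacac
Ahead of Trbd1, chr6:41532888-41533087: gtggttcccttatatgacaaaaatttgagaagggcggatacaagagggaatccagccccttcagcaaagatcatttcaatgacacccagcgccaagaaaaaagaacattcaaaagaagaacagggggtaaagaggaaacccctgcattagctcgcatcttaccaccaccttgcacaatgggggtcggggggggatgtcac

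The window past Trac held 1 CRE match, 1 TCF/LEF match, 1 GATA match and, near its end, 2 RUNX matches. CRE letters are bound by ATF and CREB proteins, TCF/LEF letters by Tcf7 and Lef1, and RUNX letters by the Runx1 and Runx3 proteins of lymphocytes. The summit of that peak, at position 54227769, lay past the window. The window between Trbc2 and Trbv31 held 2 RUNX matches, at its bases 31 to 36 and 113 to 118, and the window ahead of Traj61 held 1 RUNX match. These windows were placed on a match, so its presence was given in advance. The summit between Trbc2 and Trbv31, at position 41554652, also lay past its window. Neither peak held RUNX letters in the 200 bases around its 50 µL summit. No match was found in the window ahead of Trbd1. A match is a description of the letters and shows no binding.

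The region past Trac, where the Tra enhancer Eα is known to lie, was called in both libraries. The peak spanned chr14:54227388-54227877 without gradient centrifugation, with a fold enrichment over the local background of 2.97, and chr14:54227329-54227950 in the 50 µL library, with 2.95. It began 3182 bp past the last base of Trac in the first library and 3123 bp past it in the second. Of the peaks without gradient centrifugation, 96.5% were at least as significant as this one, and of the 50 µL peaks 21.6% were. Its −log10 q without gradient centrifugation was 4.23, under the cut of 5 used as an alternative threshold. At a fold enrichment of at least 4 it would be kept in neither library. Ranks in lists of such different length cannot be set against each other directly: over all 24140 peaks shared by the libraries the median rank was the top 48.4% without gradient centrifugation and the top 16.4% in the 50 µL list, and 19920 of them ranked higher in the latter. A further peak between Trac and Dad1, which encodes a subunit of the oligosaccharyltransferase, had a fold enrichment of 3.88 without gradient centrifugation and 3.72 in the 50 µL library, where it stood in the top 6.84%. In that library 1 more peak, with 2.33, lay between these.

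The region between Trbc2 and Trbv31, where Eβ is known to lie, was the other enhancer interval called in both libraries. The peak without gradient centrifugation spanned chr6:41554492-41554755 with a fold enrichment of 3.78, and the 50 µL peak spanned chr6:41554397-41555216 with 3.89. The shorter peak covered the second RUNX match of the printed sequence and began after the first. It was the only peak of the library without gradient centrifugation in the D, J and C end of Trb. It stood in the top 70.6% of that list and in the top 7.44% of the 50 µL list, a shift in the direction that most shared peaks took. In neither library did it reach the alternative threshold of a fold enrichment of at least 4.

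The 2 promoter regions that precede the J segments were called in the 50 µL library alone. The peak ahead of Traj61, a J pseudogene that opens the Traj array, spanned chr14:54152847-54153273 and had a fold enrichment of 7.38, in the top 7.90% of its list. It lay 1732 bp from Traj61 and within 2 kb of no member. The peak ahead of Trbd1 spanned chr6:41532808-41533135, ended 66 bp before the segment and had a fold enrichment of 5.07, in the top 19.9%. Neither had a counterpart among the peaks without gradient centrifugation. Whether the shorter list missed them or the chromatin was closed in that library was not tested.

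Constant and diversity segments were read one by one. Trac, which encodes the constant region of the α chain, carried 2 peaks inside its annotated span in the 50 µL library, with fold enrichments of 2.99 and 1.90. Trbc1 and Trbc2, the constant regions of the β chain, each had 2 peaks within 2 kb and none over the segment itself. The strongest near Trbc1 had a fold enrichment of 2.43 and the strongest near Trbc2 had 2.25. Trdc and the 4 Tcrg-C segments had no peak within 2 kb in either library. Of the D segments, Trbd1 and Trbd2 had peaks in the 50 µL library, the one closest to Trbd2 lying 32 bp from it with a fold enrichment of 2.08, and Trdd1 and Trdd2 had none. Without gradient centrifugation 0 of 8 C segments and 0 of 4 D segments had a peak within 2 kb, beside 28.9% of all annotated genes, so that the Trac and Trb constant segments were marked in that library by the intergenic peaks described above and by no peak near the segments.

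**Figure D1:**
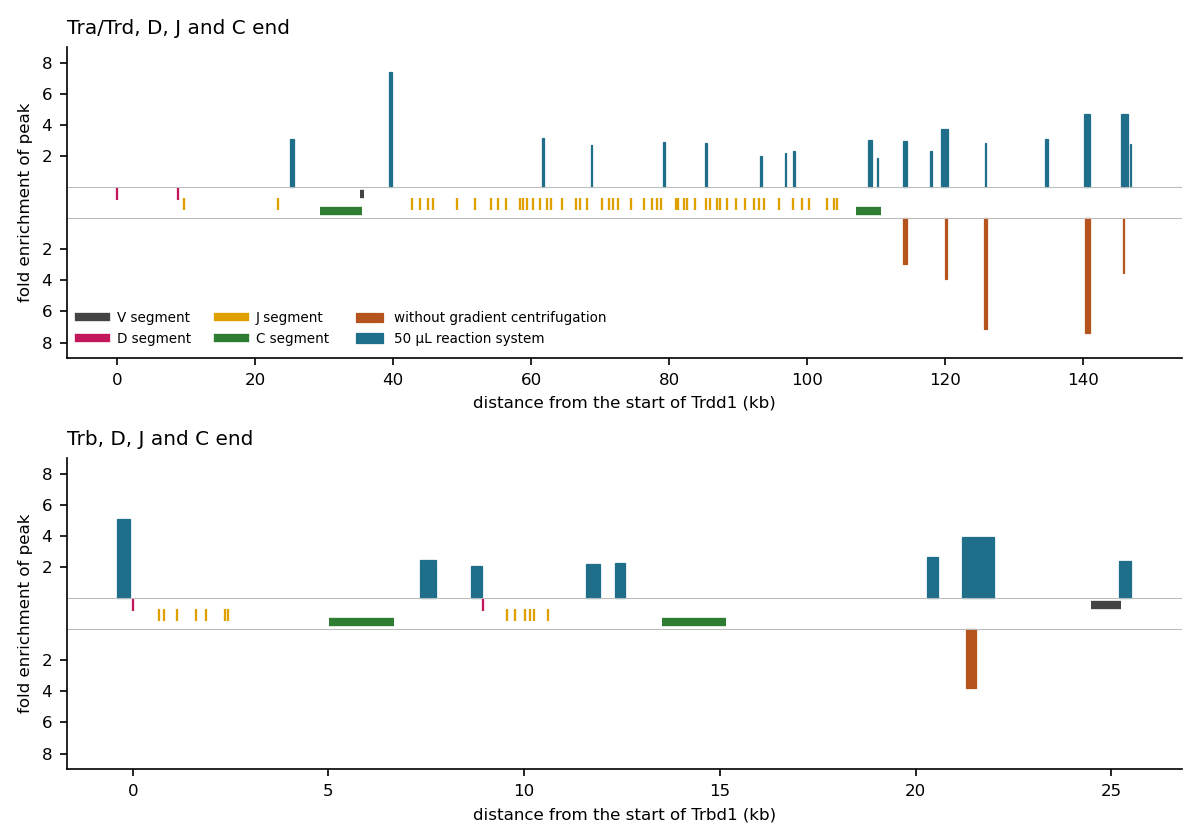
Peaks at the D, J and C ends of Tra/Trd and Trb. Bars span each peak and their height is its fold enrichment (50 µL library upward, library without gradient centrifugation downward), with V, D, J and C segments drawn between them and distance from Trdd1 or Trbd1 in kb on the horizontal axis. The 50 µL library shows peaks over the Traj array and the tallest Tra bar (7.38) ahead of it, while without gradient centrifugation the peaks lie past Trac and, in Trb, at the single site between Trbc2 and Trbv31.

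J segments made up 35 of the 65 members that had a peak in the 50 µL library alone, and V segments 25 of them. The 50 µL list was the longer one, with 89382 peaks against 25343, and the share of all genes with a peak in it alone was not counted. The count of 35 of 65 is therefore not read as a trait of J segments. Without gradient centrifugation 0 of 70 J segments had a peak within 2 kb (95% exact Clopper-Pearson interval up to 5.13%), and in the 50 µL library 35 of 70 did (50.0%, interval 37.8% to 62.2%). These intervals cover counting error only. The shares over all annotated genes were 28.9% and 41.7%, and over genes of at most 1 kb 7.58% and 17.1%. The J segments are short and packed, so few peaks stood behind the count: 8 distinct peaks served 24 of the 53 Traj and Trdj segments, and 5 served 11 of the 13 Trbj segments. Peaks overlapped the segment itself in 2 cases, Traj21 with a fold enrichment of 2.80 and Traj7 with 2.31. The 8 Tra/Trd peaks were weak, from 2.00 to 3.12, beside a median of 3.29 over the whole 50 µL list. The 5 J segments with the most significant neighbour, Trbj1-1 to Trbj1-5, all owed it to the single peak ahead of Trbd1. None of the 4 Trgj segments had a peak within 2 kb in either library.

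V segments were the only members with a nearby peak in both libraries. Without gradient centrifugation 16 of 144 V segments (11.1%, interval 6.49% to 17.4%) had a peak within 2 kb, and in the 50 µL library 41 of 144 (28.5%, interval 21.3% to 36.6%). All 16 were among the 41. Over all annotated genes the shares in the libraries in turn were 28.9% and 41.7%, and over genes of at most 1 kb 7.58% and 17.1%. Of the 16, 12 were in Tra/Trd, 1 in Trb (Trbv1, with a fold enrichment of 5.08 and then 3.51) and 3 in Trg (Tcrg-V5, Tcrg-V6 and Tcrg-V7). Tcrg-V5 and Tcrg-V6 shared the same peak, which overlapped Tcrg-V6. In Trb the count went from 1 of 22 to 10 of 22, whereas in Trg it was 3 of 7 in both libraries. With only peaks of a −log10 q above 5, the Trg count without gradient centrifugation was 1, since the peak shared by Tcrg-V5 and Tcrg-V6 had 4.69, and the 50 µL count was still 3.

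The strongest V segment peaks are listed by fold enrichment without gradient centrifugation and by significance in the 50 µL library. These orders cannot be set against each other directly. Without gradient centrifugation the peak over Trav8n-2 led the members with a fold enrichment of 7.51, followed by those at Trav15-1-dv6-1 (6.65), Trav1 and Trav4-4-dv10 (6.12 each). The same 4 segments had, in the 50 µL library, 5.14, 3.64, 4.17 and 4.00. The leading peak there, 8.08 in the 50 µL library and 5.05 without gradient centrifugation, lay just upstream of the pseudogene Trav11n and reached a member only as a peak 1633 bp from Trav6n-6. The next by significance in the 50 µL library were the peak 371 bp from Trav13-2 (4.62), the peak over Trbv2 (5.38), which was also 657 bp from Trbv3, and the peak 1094 bp from Trav2 (5.77). Trbv2 and Trbv3 had no peak without gradient centrifugation, and Trav13-2 and Trav2 did, with 5.49 and 4.52. By significance the peak at Trav13-2 came next after the leading one in both libraries, with a −log10 q of 16.5 and 39.0.

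The remaining V segments of the 10 with the most significant 50 µL neighbour were B230359F08Rik (4.57), Trav8n-2, Trav6d-4 (5.70), Tcrg-V5 and Tcrg-V6 (4.90 for the peak they shared). B230359F08Rik, a V segment of Tra/Trd under a clone name, had 2 peaks without gradient centrifugation, the stronger at 6.04. Trav6d-4 had none there. The last 5 of the 16 V segments marked without gradient centrifugation were Trav16n (6.05), Trav6-7-dv9 (5.58), Trav13n-4 (4.89), Trav17 (4.33) and Trav6n-6 (5.05). Past the 2 kb limit, a peak 2956 bp from Trav13-1 had 6.51 without gradient centrifugation and 5.03 in the 50 µL library, and a peak 3463 bp from Trbv4 had 5.38 and 2.70. Each of these fold enrichments belongs to a peak, so neighbouring segments can carry the same value.

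Printed for its strength, the 200 bases that open 30 bases before the RUNX match of the Trav11n peak also held 1 TCF/LEF match and a long GT repeat. The reference is GRCm38, plus strand, and capitals mark the same letters as before.
Trav11n peak, chr14:53134824-53135023: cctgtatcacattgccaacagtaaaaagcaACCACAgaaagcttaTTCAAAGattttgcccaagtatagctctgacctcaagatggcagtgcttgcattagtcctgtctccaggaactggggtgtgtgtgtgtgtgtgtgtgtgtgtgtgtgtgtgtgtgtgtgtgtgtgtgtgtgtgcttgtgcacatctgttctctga

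V segment peaks were read for their place along the segment, since V promoters lie at the 5′ end. Taking the most significant peak of each V segment, the summit fell within 250 bp of the 5′ end in 8 of 16 segments without gradient centrifugation and in 16 of 41 in the 50 µL library. The median summit lay 0.5 bp upstream of the 5′ end in the first case and 85 bp upstream of it in the second. Of the others, 3 of 16 and 14 of 41 lay further upstream and 5 of 16 and 11 of 41 lay past the 3′ end. Less significant peaks of the same segment were not counted. In the 50 µL library such peaks had summits 70 bp upstream of Trav2, 48 bp upstream of Trbv1 and 1 bp upstream of Trbv3. The 50 µL count near the 5′ end is therefore lower than it would be with any peak. Trav8n-2, with its summit 58 bp upstream, Trav1 with 13 bp, Trav4-4-dv10 with 20 bp and Tcrg-V6 with its summit 12 bp inside were the closest without gradient centrifugation. Distances are from the annotated start of the segment, which is not a measured transcription start.

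Because the Trav array holds near-identical copies, V segments were also read by how unique their sequence is. The measure used was the share of 31-base words in a segment and 2 kb on each side that occur once in the genome, a check chosen after the data had been seen. Of the 144 V segments, 43 had under 10% unique words, all of them in Tra/Trd, and 0 of these 43 had a peak in either library. Between 10% and 90%, 11 of 68 had a peak without gradient centrifugation and 29 of 68 in the 50 µL library. At 90% or more the counts were 5 of 33 and 12 of 33. The 46 Trav segments without a suffix had a median of 52.7% unique words, and 7 and 16 of them had a peak. The 34 with the suffix d had a median of 1.60% and counts of 0 and 6, and the 28 with the suffix n had 1.59% and counts of 4 and 5. The methods name no filter on mapping quality, and the part of mapping in the missing V peaks was not tested.

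**Figure D2:**
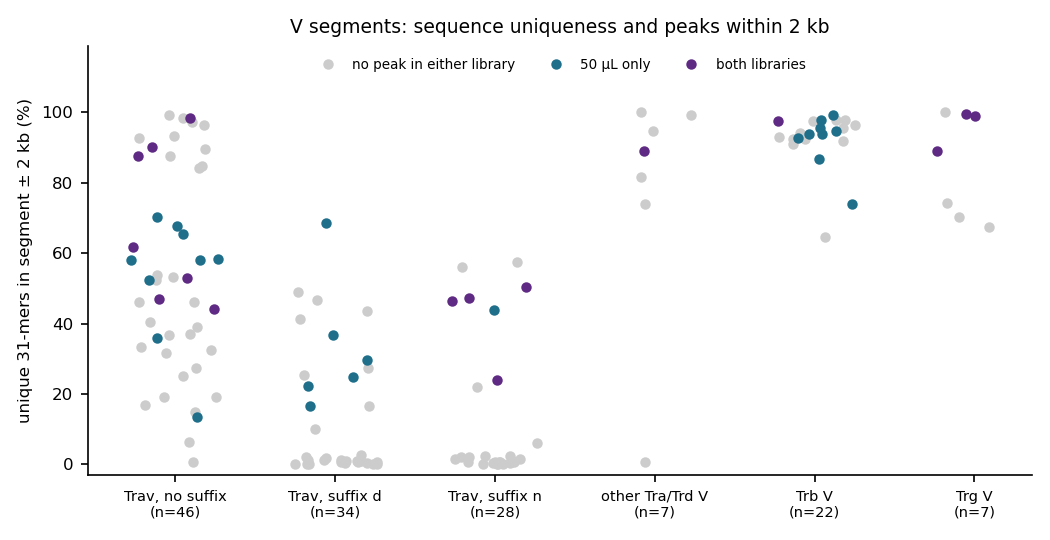
Share of unique 31-base words in each V segment and 2 kb on each side (vertical axis, %), by group of V segments (points are segments, spread sideways for legibility). Colours mark segments with a peak within 2 kb in both libraries, in the 50 µL library alone or in neither. Along the bottom, the 43 segments under 10% are all without a peak, and coloured points appear from 13.5% upward.

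In Trg, the γ chain locus, the peaks lay at the 5′ cluster of V segments, between that cluster and Trgj1, and in the flanks. The peak ahead of Tcrg-V7 had a fold enrichment of 5.46 without gradient centrifugation and 3.28 in the 50 µL library. The peak over Tcrg-V6 had 4.25 and 4.90. Between these, a peak 2341 bp and 2323 bp from Tcrg-V4, just outside the 2 kb limit, had 5.84 and 5.89 and stood in the top 37.9% and the top 8.16% of the lists. The strongest Trg peak of the 50 µL library, with 6.90, lay 15480 bp ahead of Tcrg-V7 and had no counterpart without gradient centrifugation. Between the V cluster and Trgj1 only the 50 µL library had peaks. They were 3525 bp from Tcrg-V5 (2.64) and 5334 bp and 2984 bp from Trgj1 (3.49 and 3.15). From Trgj1 to Tcrg-C4 no peak was called in either library. The peak near Tcrg-V4 is shown around its 50 µL summit, on the plus strand of GRCm38, and held 1 ETS match.
Tcrg-V4 peak, chr13:19182373-19182572: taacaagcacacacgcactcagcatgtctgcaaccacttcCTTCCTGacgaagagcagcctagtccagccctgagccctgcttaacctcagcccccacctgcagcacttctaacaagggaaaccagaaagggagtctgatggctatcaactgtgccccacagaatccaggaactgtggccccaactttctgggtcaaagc

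Together, 16 of 226 members had a peak within 2 kb without gradient centrifugation (7.08%, interval 4.10% to 11.2%), and 81 of 226 in the 50 µL library (35.8%, interval 29.6% to 42.5%). Over all annotated genes the shares were 28.9% and 41.7%. Genes of at most 1 kb, nearer to the segments in length, stood at 7.58% and 17.1%. The members were therefore near the share of short genes without gradient centrifugation and above it in the 50 µL library, with V segments at 28.5% and J segments at 50.0%. Since neighbouring segments share peaks and copies, the members are not independent and the intervals are too narrow to that extent. The 81 members rested on 72 distinct peaks, 16 of which were near several members and 1 near 8 of them.

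The totals were also compared in lists of equal length. When the 50 µL list was cut to its 25343 most significant peaks, 18 of 226 members had a peak within 2 kb (7.96%, interval 4.79% to 12.3%), close to the 16 of the other list. In that cut list all genes stood at 29.4% and genes of at most 1 kb at 7.79%, so the members no longer stood above the short genes. The makeup was not the same: 11 V, 1 D, 5 J and 1 C segments, against 16 V segments and no other type. The D segment was Trbd1, the J segments were Trbj1-1 to Trbj1-5 and the C segment was Trac. Of the 16 V segments marked without gradient centrifugation, 7 were among the 11. The D, J and C segments of the cut list rested on 1 peak ahead of Trbd1 and 1 peak in Trac. By locus the cut list gave 8 members in Tra/Trd, 8 in Trb and 2 in Trg, against 12, 1 and 3 in the other list.

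**Figure D3:**
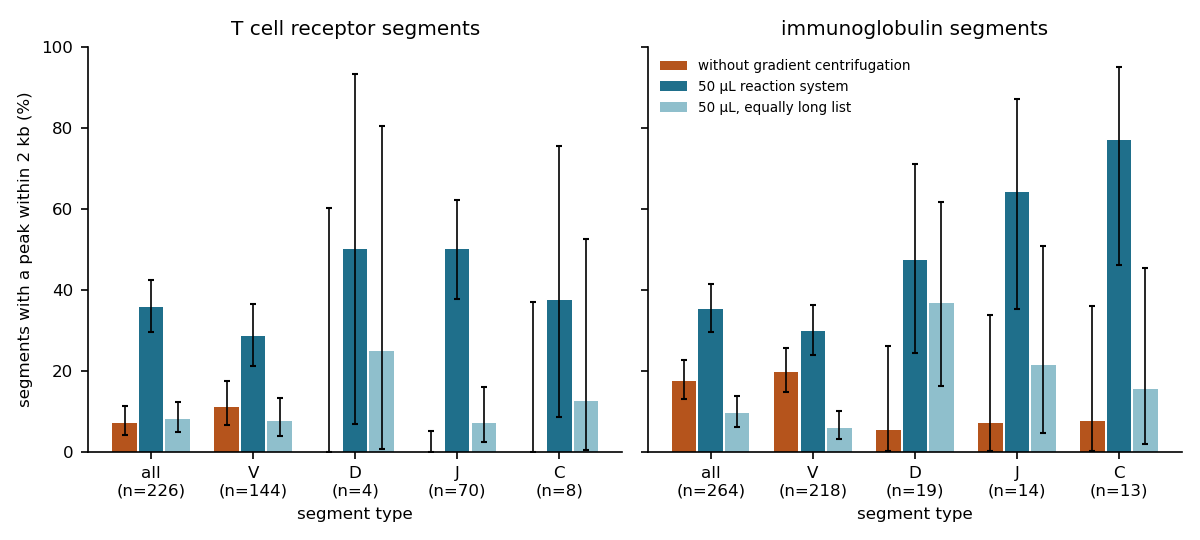
Share of segments with a peak within 2 kb (vertical axis, %), by segment type, for T cell receptor segments (left) and immunoglobulin segments (right). Bars are the 2 libraries and the 50 µL list cut to the length of the other, and error bars are 95% exact Clopper-Pearson intervals. T cell receptor J segments stand at 0% without gradient centrifugation, 50.0% in the 50 µL library and 7.14% in the cut list.

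Immunoglobulin segments, which B cells of the spleen have joined, were the closest class for comparison. Without gradient centrifugation 46 of 264 had a peak within 2 kb (17.4%, against 7.08% of the T cell receptor segments). The count was 93 of 264 in the 50 µL library (35.2%, interval 29.5% to 41.3%), nearly the share of the T cell receptor segments. In the equal list they stood at 9.47%. By type, the 50 µL library had V segments at 28.5% and 29.8%, J segments at 50.0% and 64.3% and C segments at 37.5% and 76.9% for T cell receptor and immunoglobulin segments in turn. No test was made of these differences.

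Peaks were then counted over the whole loci with 50 kb on each side, whether or not they were near a segment. Without gradient centrifugation Tra/Trd held 25 peaks (13.2 per Mb), Trb 4 (5.21 per Mb) and Trg 6 (21.8 per Mb), beside 9.30 per Mb over the genome. In the 50 µL library the counts were 79 (41.7 per Mb), 33 (43.0 per Mb) and 14 in the 3 loci in turn, with Trg again the densest, beside 32.7 per Mb. Trb thus had a lower density than the genome in the first library and a higher one in the second, and in the equal list it again held 4 peaks (5.21 per Mb). The ranking of Trg includes its flanks, which hold peaks in the neighbouring gene Stard3nl. Without flanks Trg held 2 and 7 peaks in the libraries in turn, Tra/Trd 20 and 71, and Trb 4 and 26. Unique 31-base words made up 47.2% of the Tra/Trd locus, 73.8% of Trb and 71.1% of Trg.

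**Figure D4:**
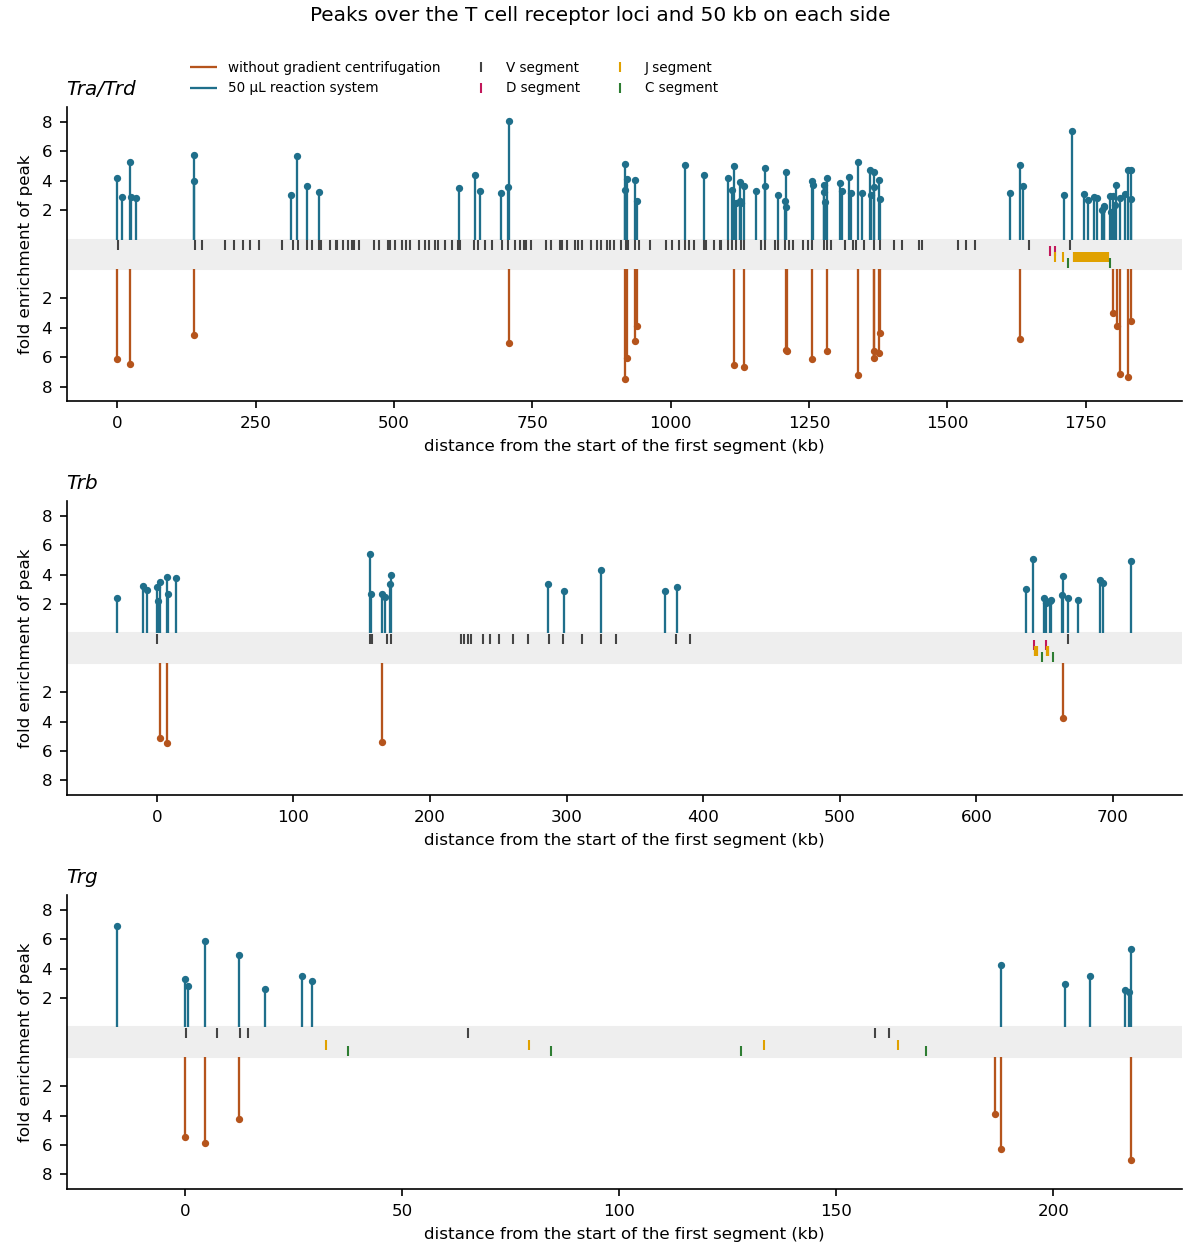
Peaks over the 3 loci with 50 kb on each side, at their distance in kb from the start of the first segment. Stems give the fold enrichment of each peak (50 µL library upward, library without gradient centrifugation downward), and ticks in the grey band are V, D, J and C segments. In Tra/Trd the downward stems gather in the V array and past Trac with none over the J array, and the middle of Trb, where the trypsinogen genes lie, is empty but for 2 stems of the 50 µL library close to Trbd1.

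The density within a locus was uneven. In the 50 µL library the V array of Tra/Trd, over 1648 kb, held 59 peaks (35.8 per Mb), and the D, J and C end, over 111 kb, held 11 (99.3 per Mb). In Trb the V array held 16 (40.9 per Mb) and the D, J and C end 6 within 25.3 kb (238 per Mb). Without gradient centrifugation the V array of Tra/Trd held 19 peaks and its D, J and C end 0, and the V array of Trb held 3 and its D, J and C end 1. Median fold enrichments ran the other way in the 50 µL library, at 3.62 in the V array and 2.80 in the D, J and C end of Tra/Trd, and at 3.24 and 2.34 in Trb. In both loci the D, J and C end thus held more peaks per Mb than the V array in that library, at a lower median enrichment, and the Tra/Trd flank past Trac held a further 8 peaks in 50 kb.

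The stretch of 251 kb between the Trb V array and Trbd1, which holds the trypsinogen genes of the pancreas (Try4, Try5, Try10, Prss1, Prss2 and Prss3 among them), had 0 peaks without gradient centrifugation and 2 in the 50 µL library. These were the peak ahead of Trbd1 and 1 peak 5384 bp from it. None of the 6 trypsinogen genes named had a peak within 2 kb. The other protein-coding neighbours carried signal of their own. The divergent starts of Dad1 and Abhd4 lay under 1 peak, at 7.36 without gradient centrifugation and 4.71 in the 50 µL library (fold enrichment). Stard3nl beside Trg had 7.02 and 5.35 at its start, and Ephb6, a kinase-inactive ephrin receptor past Trb, had a promoter peak of 4.92 in the 50 µL library only. Of the 6 olfactory receptor genes in the 5′ part of Tra/Trd, 1 had a peak within 2 kb without gradient centrifugation and 3 in the 50 µL library. These were Olfr1509 with 6.49 and 5.25 and, in the 50 µL library only, Olfr1508 with 2.81 and Olfr1512 with 3.49. A second Stard3nl peak, inside the gene and nearest to Tcrg-C4 among the segments, had 6.25 and 4.27, and a peak inside Abhd4 had 3.53 and 4.72. A peak in the serine protease gene Prss58, 6632 bp and 6559 bp from Trbv1 in the libraries in turn, had 5.44 and 3.83. Amph, ahead of Trg, had no peak within 2 kb.

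Most locus peaks without gradient centrifugation were found again in the longer list. An overlap of at least 1 bp was present for 32 of 35 (91.4%, interval 76.9% to 98.2%), beside 95.3% of that whole list. From the other side 33 of 126 locus peaks of the 50 µL library overlapped a peak of the other list (26.2%, interval 18.8% to 34.8%), beside 26.4% of the whole list. By locus these were 23 of 79 in Tra/Trd, 4 of 33 in Trb and 6 of 14 in Trg. In the 50 µL library 0 of 11 peaks in the D, J and C end of Tra/Trd were shared, against 17 of 59 in its V array. The loci were thus close to the whole lists in the share of common peaks, with the D, J and C end of Tra/Trd at 0.

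For the 32 pairs the fold enrichment was lower in the 50 µL library in most cases. It was higher there in 7 of 32, with a median log2 difference (50 µL over without gradient centrifugation) of -0.43, and over all 24140 shared peaks it was higher in 21.3%, with a median of -0.31. The largest rise was at Trav11n, at 0.68 on the log2 scale, and the largest fall was a peak inside Dad1, from 7.12 to 2.81, at -1.34. The enhancer intervals stood above that median, with -0.01 at the peak past Trac and 0.04 at the peak between Trbc2 and Trbv31. This was not particular to them, since other peaks that were weak without gradient centrifugation did so too. Examples were the peaks inside Abhd4 (3.53 there, 0.42), between Trac and Dad1 (3.88, -0.06) and over Tcrg-V6 (4.25, 0.20). A peak at Trav17 (4.33) went the other way, with -0.63. Fold enrichment depends on the background and depth of a library, so a difference between libraries in this value cannot be told apart from a difference in depth.

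**Figure D5:**
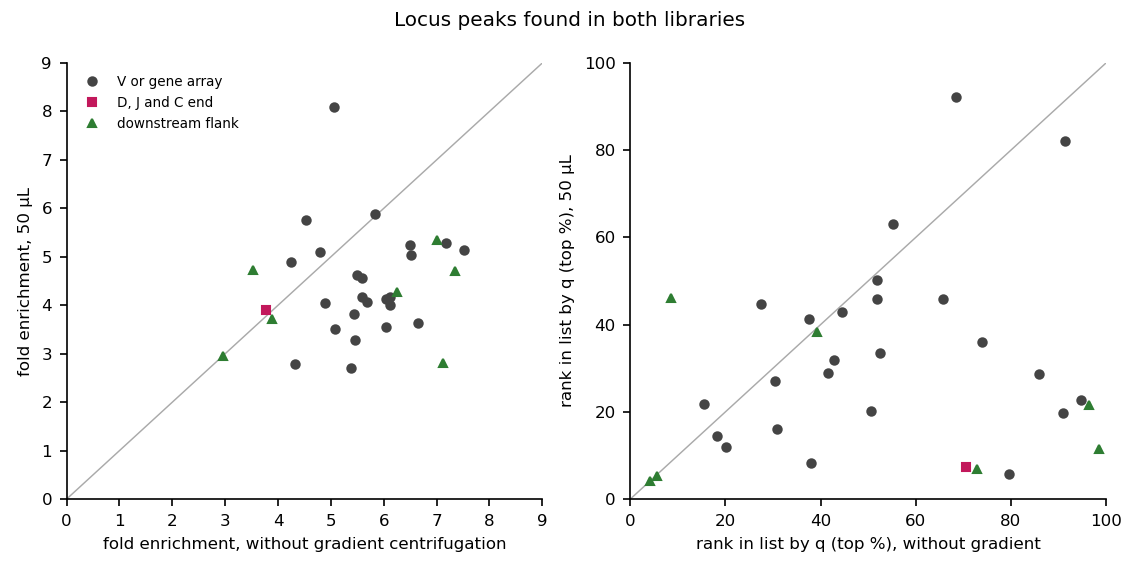
The 32 peaks without gradient centrifugation that overlap a 50 µL peak. The left panel sets their fold enrichments against each other and the right panel their ranks in each list by q value (top %, lower is more significant), with the diagonal marking equal values and symbols marking the part of the locus. In the left panel 7 points lie above the diagonal, and in the right panel 25 of the 32 rank higher in the 50 µL list, the peak between Trbc2 and Trbv31 among them at 70.6% and 7.44%.

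Consensus letters under the summits were compared with those under all summits of the same library, in windows of 200 bp and on both strands. RUNX letters were present in 11 of 35 locus windows without gradient centrifugation (31.4%, interval 16.9% to 49.3%), beside 20.6% of all windows, and in 27 of 126 in the 50 µL library (21.4%, interval 14.6% to 29.6%), beside 20.8%. ETS letters were present in 31.4% of the locus windows beside 19.7% of all, and in 19.0% beside 13.4%. The CTCF motif, bound by the insulator protein that folds these loci, was present in 5 of 35 windows beside 7.94% of all, and in 7 of 126 (5.56%) beside 2.68%. Each of these 6 intervals took in the share over all windows (for ETS 16.9% to 49.3% and 12.6% to 27.0%, for CTCF 4.81% to 30.3% and 2.26% to 11.1%). In the V arrays and among the Trg segments of the 50 µL library, some intervals lay above the share over all windows. These were ETS (22.2%, interval 13.7% to 32.8%), GATA (18.5%, 10.8% to 28.7%, beside 9.72%) and, narrowly, CTCF (7.41%, 2.77% to 15.4%). The intervals of the other letters searched there took in that share, and no difference was tested. No CRE match lay in any locus summit window, the one past Trac being outside the window of its summit. The recombination heptamer CACAGTG was present in 1 of 35 and 12 of 126 windows (9.52%), beside 5.75% and 5.15% of all, and at the joining end of 107 of 144 V segments and 26 of 70 J segments.

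The cell types expected in spleen and the genes that act with the receptor were looked up by the same rule. Of 11 T cell marker genes 7 had a peak within 2 kb without gradient centrifugation and 11 in the 50 µL library, while 6 of 6 B cell markers had one in both and 2 and 4 of 5 myeloid markers did. Over all protein-coding genes the shares were 53.6% and 67.3%. Among the CD3 subunits, which carry the receptor to the surface, Cd3d had a peak in both libraries (5.66 and 3.86) and Cd3e and Cd3g in the 50 µL library only (2.79 and 2.95). Of 18 genes of receptor assembly and its partners 13 and 16 had a peak. The genes of developing lymphocytes among them were split. Rag1 and Ptcra had no peak in either library. Rag2 had one of 6.37 and 6.69, and Dntt, which adds bases at the joins, had 5.56 and 5.52.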

How the data were processed

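Peaks of 2 scFFPE-ATAC libraries of mouse FFPE spleen were analysed. By the study's methods, the authors mapped reads to mm10 with BWA (mem), removed duplicates with their own script, ran MACS2 with no model and a shift of 0, and filtered blacklisted regions with bedtools. No offset for Tn5 insertion sites and no filter on mapping quality is named there. The submitters' processing notes also list SAMtools and hg38, and hg38 was not used here. Each deposited peak has an integer score, which was left aside. Fold enrichment, a ratio to the local background, was taken as the authors' MACS2 run gave it. The −log10 p and −log10 q values deposited by the authors belong to the same summit, and −log10 q ranked peaks within a list. All of these depend on the number of reads, which is unknown.

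Genes were those of GENCODE vM21, and 169 peaks of the 50 µL list lay off the reference chromosomes and outside the sequence windows. A peak was near a segment when any base lay within 2000 bp of it. Loci ran from the first to the last member with 50000 bp on each side, and peaks were shared with an overlap of at least 1 bp. Shares have exact Clopper-Pearson intervals at 95%, which cover counting error only. With 1 library per condition no test between conditions was made. Named genes were all C and D segments, every V or J segment near a peak without gradient centrifugation, the 10 V and 5 J segments with the most significant 50 µL peak, the 5 most significant peaks per locus and library, and the protein-coding genes in the loci. The members and lists were chosen with earlier results of these data known. Counting was tested on simulated peaks. Python 3.11.15, pandas 2.3.3, numpy 2.4.6 and scipy 1.17.1 were used. Alternatives were other distances, peak thresholds, list lengths, flanks, overlaps and windows, and, chosen after seeing the data, classes of sequence uniqueness and a background of short genes.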

Additional observations from a re-analysis of the deposited data

How the results depend on the processing

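No paired analysis was possible because each condition had 1 library, and no replicate could be left out for the same reason. With other settings for calling a segment near a peak, 1 kb in place of 2 kb, the summit in place of any base, a −log10 q above 5 and the addition of pseudogene segments kept both totals within 1.5 times of 16 and 81. Overlap with the segment itself gave 8 and 25, 5 kb gave 25 without gradient centrifugation, a fold enrichment of at least 4 gave 27 in the 50 µL library and the equally long list gave 18 there. With overlap in the 50 µL library, J segments went from 35 to 2, D from 2 to 0 and C from 3 to 1, and a fold enrichment of at least 4 left 0 C segments. J segments there also moved with other settings, to 19 with 1 kb and 59 with 5 kb. A fold enrichment of at least 4 and the equally long list each left 5 J segments. Without flanks Trg held 2 and 7 peaks. In the 50 µL library a fold enrichment of at least 4 left 26, 4 and 5 peaks in Tra/Trd, Trb and Trg, and the equally long list left 16, 4 and 4.

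A reciprocal overlap of 50% lowered the shared locus peaks to 57.1% and 15.9% of the lists without gradient centrifugation and of 50 µL. A fold enrichment of at least 4 gave 65.5% and 54.3%, and the equally long list gave 45.7% and 66.7%. Locus peaks nearest to a V segment were 77.1% and 73.8%, and at a fold enrichment of at least 4 they were 82.9% in the 50 µL library. Over whole peaks RUNX letters were in 51.4% and 38.1%, and within 100 bp of the summit in 14.3% of the 50 µL windows. ETS letters within 100 bp were in 14.3% and 8.73%, and the CTCF motif in 0% without gradient centrifugation. Each of these settings, by construction, counts fewer peaks, or more or fewer bases around a segment or summit. The depth of the libraries limits all counts, since a site outside a list may lie under the threshold of the authors.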

Other observations

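The annotated pseudogene segments, which are no members, had peaks within 2 kb in 2 of 34 V and 0 of 10 J cases without gradient centrifugation. In the 50 µL library the counts were 6 of 34 V and 5 of 10 J (interval for J 18.7% to 81.3%). Over all annotated genes the shares were 28.9% and 41.7%, and over genes of at most 1 kb 7.58% and 17.1%. The peaks beside the J pseudogenes Traj36 and Traj8 were also counted for neighbouring members. The V pseudogenes were Trav11n and Trav15-3 in both libraries and, in the 50 µL library alone, Trav15d-3, Trav8-2, Trbv18 and Trbv24. Trav15-3 lay 80 bp from a peak with a fold enrichment of 7.18 without gradient centrifugation and 82 bp from one of 5.28 in the 50 µL library.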
